A study of Mus musculus with 10 samples.

Results

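The electron transport chain and ATP synthase of the inner mitochondrial membrane were followed through their nuclear genes in 5 mouse stem cell cultures. Genes were taken by symbol: all that begin with Nduf, Uqcr or Atp5, or with Cox4, Cox5, Cox6, Cox7 or Cox8, together with Sdha, Sdhb, Sdhc and Sdhd. Probe sets with 1 gene symbol were used, and for a gene with several the one with the highest mean. This gave 89 genes of the 19938 analysed. Complex I had 41 of them (6 core subunits, 28 accessory subunits and 7 assembly factors of the Ndufaf series), complex II 4, complex III 8, complex IV 19 (10 subunits found in all tissues and 9 tissue-restricted isoforms or relatives) and complex V, the ATP synthase, 17 (5 of the catalytic F1 head and 12 of the membrane ring and stalk). Probe sets shared by Cox7c, Ndufb4 or Ndufs5 and a near copy carried more than 1 symbol and were not used; Ndufs5 also had a probe set of its own.

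Complexes I and II pass electrons from NADH and succinate to ubiquinone, complex III passes them to cytochrome c and complex IV to oxygen. Complexes I, III and IV pump protons as they do so, and complex V makes ATP from the proton gradient. Most subunits are encoded in the nucleus and a few, including the catalytic centre of complex IV, in the mitochondrial genome. Pluripotent stem cells are known for strong glycolysis beside respiration, and neural differentiation is known to go with a greater use of oxidative phosphorylation.

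The study set ES cells, the neural stem cells made from them in culture and neural stem cells from the brain side by side, with 2 biological replicates and so 2 arrays for each of 5 groups. The group mESC was the R1 line, a mouse ES line of 129/Sv origin from which the labels also derive the next 3 groups. It grew on feeder fibroblasts stopped with mitomycin-C, in 15% fetal bovine serum with Lif at 1000 U/ml. The group p-NSC_L held primitive neural stem cell spheres in serum-free N2 medium with Lif at 1000 U/ml, and p-NSC_LF such spheres with 10 ng/ml FGF and 2 µg/ml heparin added to the Lif. The group d-NSC held definitive neural stem cells derived from the primitive ones, in N2 and B27 with EGF and FGF at 20 ng/ml each and 2 µg/ml heparin, without Lif. The group CNS-NSC held neural stem cells from the frontal lobes of wild-type ICR embryos at E11.5, in N2 with EGF, FGF and heparin at the same concentrations. Lif is a cytokine that keeps mouse ES cells pluripotent, and EGF and FGF are mitogens of neural stem cells.

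Values are log2 intensities, and a difference is the mean of the first group minus that of the second on this scale, ± its SE (limma, n = 2 arrays in each group). The words rose and fell are kept for an adjusted p below 0.05 in limma, after Benjamini-Hochberg adjustment over all 19938 genes. Differences are on probe sets that the annotation gives to each gene, and no gene's level was set against another's. Whether a probe set lies at the gene's own locus or at a near copy was not tested. Arrays measure bulk RNA, so fewer cells of a type and less RNA per cell cannot be told apart.

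Cell type markers bear on what each group held. Neural stem cell markers separated d-NSC and CNS-NSC from the Lif cultures: the log2 of the summed intensity of 8 markers was 14.75 and 14.81 in d-NSC, 15.61 and 15.63 in CNS-NSC and 11.04 to 11.32 on the other 6 arrays. The same sum over 6 ES cell markers was 14.53 to 14.73 in the 3 Lif groups, 12.37 and 12.28 in d-NSC, and 9.86 and 9.80 in CNS-NSC. Pou5f1, the pluripotency factor Oct4, still read 11.15 and 10.94 in d-NSC, against 6.97 and 6.92 in CNS-NSC. Sums over 8 feeder fibroblast markers were 11.63 and 11.58 in d-NSC, 11.13 and 11.59 in p-NSC_L, 10.96 on both mESC arrays, 10.80 and 10.82 in p-NSC_LF, and 10.68 and 10.55 in CNS-NSC, so that p-NSC_L replicate 2 was as high as d-NSC. For 5 endoderm markers they were 11.23 and 11.27 in d-NSC against 9.83 to 10.55 on the others. Hprt read 6.99 and 6.76 in mESC and at least 10.45 elsewhere, although the labels give R1 or R1-derived cells for all of the ES cell series. Whether another subline is part of the comparisons with mESC was not tested. The replicates of mESC and p-NSC_LF were uneven for the 89 respiratory genes. Replicate 1 was the higher in mESC for 76 of 89, by a median of 0.21, and in p-NSC_LF for 71, by a median of 0.09, against 50.3% and 47.9% of all genes.

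Most of the 89 genes had their lowest group mean in d-NSC, and most had their highest in CNS-NSC. The lowest of the 5 group means was that of d-NSC for 63 of the 89, or 70.8%, against 22.0% of all genes, and the highest was that of CNS-NSC for 50, or 56.2%, against 28.6%. Both d-NSC arrays lay below all 8 other arrays for 44 genes (49.4%), where 9.89% of all genes did so and 15.9% of the 3885 genes with a mean of at least 10. Both CNS-NSC arrays lay above all others for 30 genes (33.7%; all genes 16.2%), and both mESC arrays for 7 (7.9%; all genes 8.1%). The moderated F test called 63 of the 89 as different among the 5 groups, a share of 70.8% beside 57.7% of all genes. The median deviation of the 89 genes from their own means was -0.35 and -0.29 on the d-NSC arrays, 0.22 and 0.15 on the CNS-NSC arrays and between -0.08 and 0.17 on the other 6. Complex IV was not highest in CNS-NSC: its median deviations were 0.11 and 0.05 there, against 0.20 and 0.13 in p-NSC_LF. Both CNS-NSC arrays lay above all others for 2 of its 19 genes (10.5%).

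**Figure D1:**
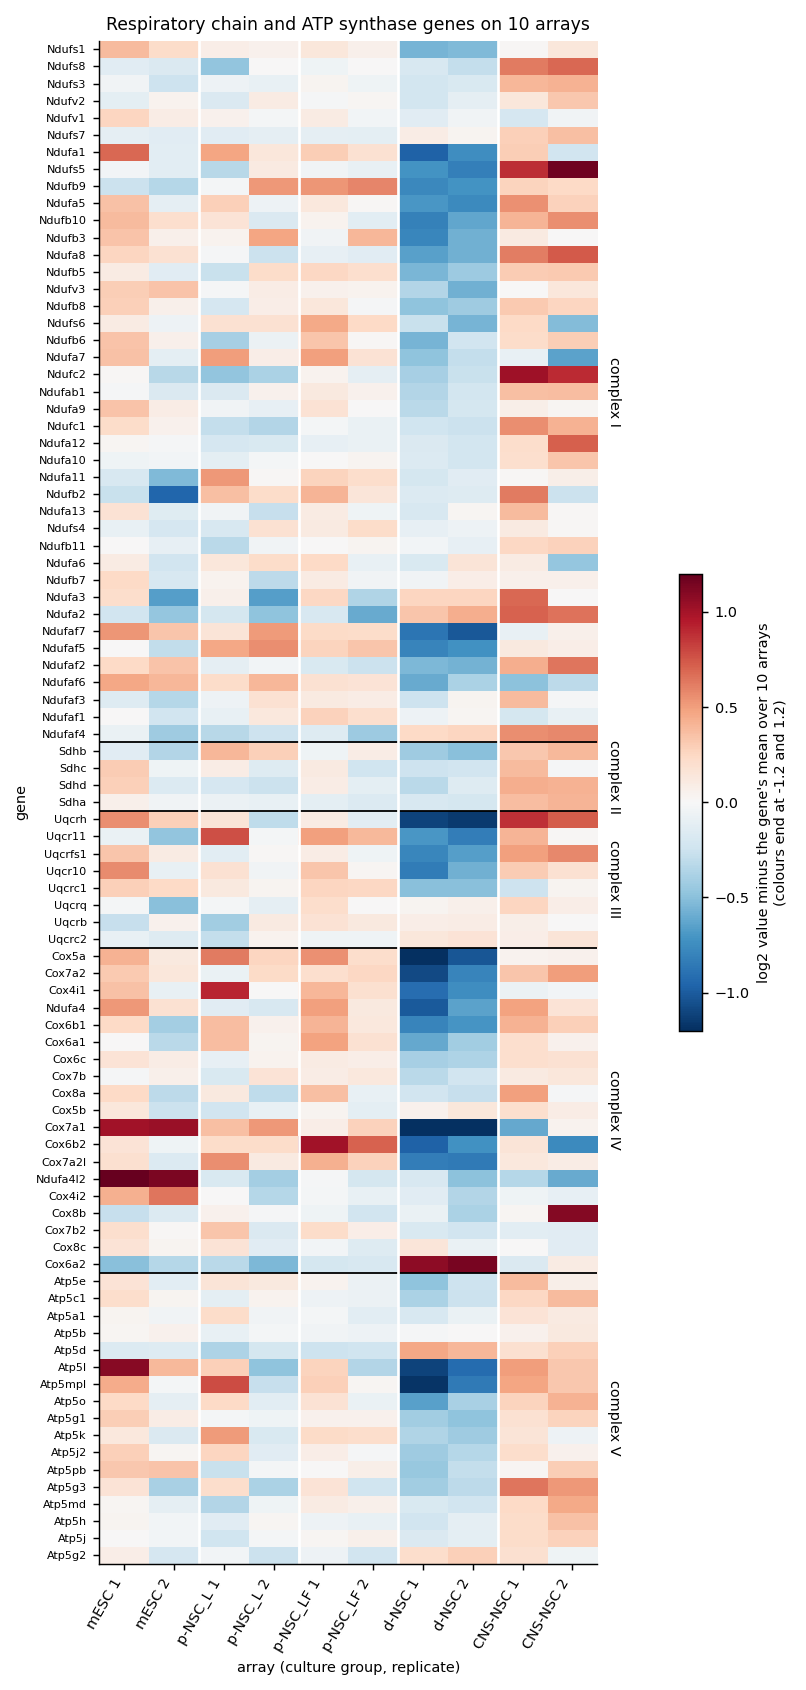
Each row is 1 of the 89 genes, grouped by complex, and each column is 1 of the 10 arrays; the colour is the log2 value minus the gene's mean over the 10 arrays, and colours end at -1.2 and 1.2. The 2 d-NSC columns are blue for most genes of complexes III and IV, where their median deviations in complex III are -0.59 and -0.54, while Cox6a2, Atp5d, Ndufa2 and Atp5g2 are red there.

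In the step from passaged primitive spheres to definitive neural stem cells, d-NSC against p-NSC_LF, 44 of the 89 genes fell, 5 rose and 40 did not pass the test, with a median difference of -0.37. Among all genes 19.3% fell and 19.3% rose, with a median of -0.01, and among the 3885 genes with a mean of at least 10, 1152 fell and 885 rose, with a median of -0.06. In all, 78 of the 89 differences lay below 0, and 15 were at least 2-fold. Ubiquitous complex IV subunits fell at 8 of 10 (median -0.93), complex III at 5 of 8 (median -0.75), complex I accessory subunits at 15 of 28 with 1 higher (median -0.43) and the ring and stalk of complex V at 7 of 12 with 1 higher (median -0.41). Fewer passed among complex I core subunits (1 of 6 lower, median -0.18), complex II (1 of 4 lower, median -0.20) and the F1 head of complex V (0 of 5 lower and 1 higher, median -0.06). Whether the classes differ from one another was not tested. The 44 falls came to 29 without d-NSC replicate 1 or without p-NSC_LF replicate 1, and 26 were called whichever array was left out. In the same comparison 7 of 8 neural stem cell markers rose and 1 fell. Feeder fibroblast markers rose at 6 of 8, with 1 lower, and endoderm markers at 3 of 5. Neuron markers rose at 5 of 6, with 1 lower. The log2 of their summed intensity was still 12.58 and 12.59 in d-NSC against 12.74 and 12.76 in p-NSC_LF. ES cell markers fell at 5 of 6 and astroglia markers at 1 of 4. These marker changes are measured facts whose part in the values of the 89 genes was not tested.

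**Figure D2:**
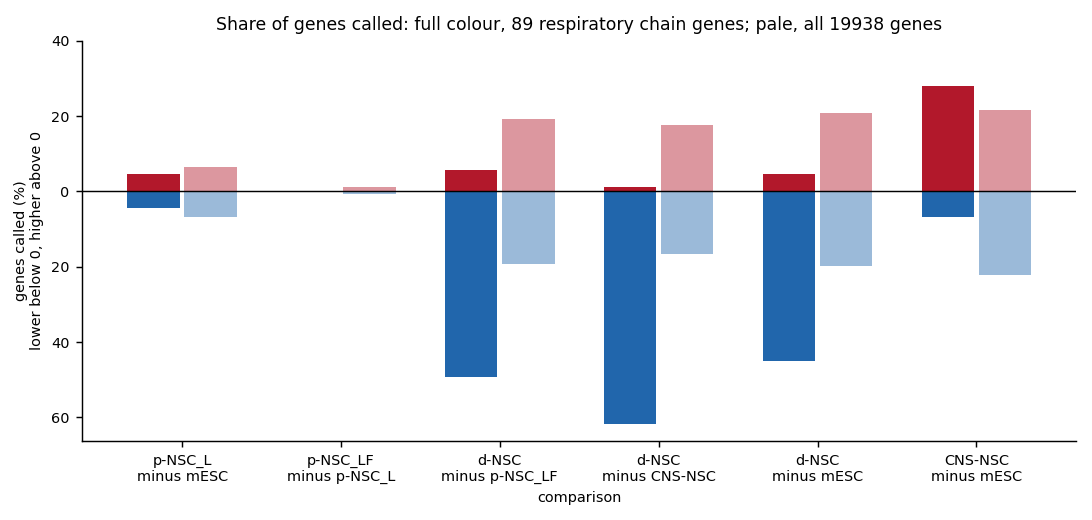
Bars give the percentage of genes called higher (above 0) or lower (below 0) in each of 6 comparisons, in full colour for the 89 genes and pale for all 19938. In the 3 comparisons of d-NSC the falls among the 89 genes, 44.9% to 61.8%, stand beside 16.5% to 19.9% of all genes.

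Promoters of 4 genes that moved in this step are shown: 3 of genes that fell with most of their class, and that of Atp5d, the 1 gene of the F1 head that passed the test, which rose. Of the 89 genes 73 had an entry in the RefSeq promoter table (GRCm38.p6), each a window of 250 bases before to 50 after the start; the first 260 bases are printed, on the gene's strand. Capitals mark matches, on either strand, to the core motifs of NRF1 (GCATGCGC), GABP (CCGGAAG), the ERR receptors (AAGGTCA), YY1 (AAGATGGC) and the hypoxia response (ACGTG), factors known at respiratory genes.
Cox6a1, chr5:115348949-115349208, minus strand: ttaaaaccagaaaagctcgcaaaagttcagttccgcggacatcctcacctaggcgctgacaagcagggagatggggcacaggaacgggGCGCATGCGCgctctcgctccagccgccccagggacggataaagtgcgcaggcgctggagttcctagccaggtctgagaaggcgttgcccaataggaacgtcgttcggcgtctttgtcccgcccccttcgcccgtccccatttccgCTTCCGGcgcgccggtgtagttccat
Uqcr11, chr10:80406812-80407071, minus strand: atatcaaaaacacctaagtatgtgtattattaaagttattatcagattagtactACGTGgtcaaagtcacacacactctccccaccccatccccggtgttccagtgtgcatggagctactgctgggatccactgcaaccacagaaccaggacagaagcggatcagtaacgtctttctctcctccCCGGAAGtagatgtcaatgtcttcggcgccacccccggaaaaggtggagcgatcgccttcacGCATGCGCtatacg
Uqcrh, chr4:116075061-116075320, minus strand: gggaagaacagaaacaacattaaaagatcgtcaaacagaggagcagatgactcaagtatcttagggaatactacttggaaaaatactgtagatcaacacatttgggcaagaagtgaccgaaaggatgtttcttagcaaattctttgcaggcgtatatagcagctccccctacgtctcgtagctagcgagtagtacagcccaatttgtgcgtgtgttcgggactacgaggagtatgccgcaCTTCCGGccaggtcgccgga
Atp5d, chr10:80142025-80142284, plus strand: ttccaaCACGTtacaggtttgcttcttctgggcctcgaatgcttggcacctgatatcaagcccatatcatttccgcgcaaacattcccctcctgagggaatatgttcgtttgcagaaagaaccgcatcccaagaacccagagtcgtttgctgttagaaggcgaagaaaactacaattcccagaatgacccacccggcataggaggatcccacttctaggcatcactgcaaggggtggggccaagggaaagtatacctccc

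The Cox6a1 window holds the NRF1 core on both strands, overlapping, with the first letters 162 and 160 bases before the start, and a GABP core 16 bases before it. Uqcr11 has an NRF1 core that begins 4 bases before the start, a GABP core at 66 and a hypoxia core at 196. In Uqcrh a GABP core begins 10 bases before the start, and in Atp5d, the first of 2 windows in the table, only a hypoxia core at 244 was found. Over whole windows, the NRF1 core was found in 12 of the 73 genes (16.4%, against 4.3% of the array's genes with a window) and the GABP core in 18 (24.7% against 13.6%). The YY1 core was in 10 (13.7% against 3.8%), the ERR core in 7 (9.6% against 4.5%) and the hypoxia core in 18 (24.7% against 24.4%). Over all genes of the table, those shares were 3.0%, 9.9%, 3.2%, 5.4% and 21.8% in the same order. Among genes with a window, the 38 that fell in this step and the 35 others held the NRF1 core in 8 and 4 cases and the GABP core in 8 and 10. The YY1 core was in 5 and 5, the ERR core in 3 and 4 and the hypoxia core in 10 and 8. The 4 windows printed are picked examples and do not stand for the genes that fell or rose. Atp5g2 and Ndufaf4, which also rose, each held the NRF1 core. These are matches of letters and show no binding.

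Complex I takes up electrons from NADH. Ndufs1, a core subunit that carries iron-sulphur clusters of the NADH arm, read 11.04 and 10.88 in mESC, 10.74 and 10.71 in p-NSC_L, 10.80 and 10.72 in p-NSC_LF, 10.10 and 10.13 in d-NSC, and 10.67 and 10.80 in CNS-NSC. Both d-NSC arrays were the lowest of the 10, and Ndufs1 fell by 0.65 ± 0.10 (adjusted p = 0.00058) from p-NSC_LF and fell by 0.62 ± 0.10 (adjusted p = 0.00093) below CNS-NSC. The other 5 core genes, Ndufs3, Ndufs7, Ndufs8, Ndufv1 and Ndufv2, differed from p-NSC_LF by -0.21 to 0.18 and none passed the test. Against CNS-NSC, 4 of the 6 fell, among them Ndufs8, a carrier of iron-sulphur clusters near the quinone site, which fell by 0.89 ± 0.14 (adjusted p = 0.00071).

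Accessory subunits of complex I surround the core and are needed for its assembly. Ndufb9, of the far end of the membrane arm, read 11.70 and 11.62 in mESC, 11.94 and 12.48 in p-NSC_L, 12.49 and 12.55 in p-NSC_LF, 11.19 and 11.24 in d-NSC, and 12.23 and 12.20 in CNS-NSC. It stood highest in the p-NSC_LF arrays and p-NSC_L replicate 2, and lowest in d-NSC, and it fell by 1.31 ± 0.15 (adjusted p = 7.9e-05), or 2.48-fold, from p-NSC_LF to d-NSC. Ndufs5, which lies on the intermembrane side, had the widest range of group means in complex I, at 1.80. Its values were 8.65 and 8.55 in mESC, 8.35 and 8.79 in p-NSC_L, 8.64 and 8.59 in p-NSC_LF, 7.96 and 7.86 in d-NSC, and 9.57 and 9.85 in CNS-NSC. The d-NSC arrays were the lowest and the CNS-NSC arrays the highest, without overlap with the other groups, and Ndufs5 fell by 0.71 ± 0.15 (adjusted p = 0.0038) from p-NSC_LF and fell by 1.80 ± 0.15 (adjusted p = 9.1e-06) below CNS-NSC. Ndufc2, of the membrane arm, read 12.81 and 12.47 in mESC, 12.33 and 12.42 in p-NSC_L, 12.84 and 12.69 in p-NSC_LF, 12.40 and 12.53 in d-NSC, and 13.82 and 13.70 in CNS-NSC. Here only CNS-NSC stood apart: it was above all other arrays, and d-NSC differed from p-NSC_LF by -0.30 ± 0.13 (adjusted p = 0.1) and from CNS-NSC by -1.29 ± 0.13 (adjusted p = 3.4e-05). Ndufa8, an intermembrane-side subunit, fell by 0.49 ± 0.11 (adjusted p = 0.0057) from p-NSC_LF and fell by 1.29 ± 0.11 (adjusted p = 1.2e-05) below CNS-NSC. Ndufb7, also of the membrane arm, had the narrowest range of group means in the complex, 0.20, and passed no test.

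Further accessory subunits fell in d-NSC against p-NSC_LF. Ndufa1, a small membrane subunit, fell by 1.10 ± 0.26 (adjusted p = 0.0062), a call lost without d-NSC replicate 1 (adjusted p = 0.052). Ndufb3 fell by 0.86 ± 0.18 (adjusted p = 0.0037), Ndufa5 fell by 0.80 ± 0.17 (adjusted p = 0.004), Ndufb5 fell by 0.72 ± 0.15 (adjusted p = 0.0039) and Ndufb10 fell by 0.67 ± 0.14 (adjusted p = 0.0034), and these 4 calls held whichever array was left out. Ndufs6, a zinc-binding subunit of the NADH arm, stood at -0.76 ± 0.21 (adjusted p = 0.016) and Ndufa7 at -0.72 ± 0.22 (adjusted p = 0.027). The Ndufs6 call was lost without d-NSC replicate 2 or p-NSC_LF replicate 1 (adjusted p up to 0.12), the Ndufa7 call without either d-NSC array or p-NSC_LF replicate 1 (up to 0.18), and both in the unmoderated test. Neither passed against CNS-NSC, at -0.27 ± 0.21 (adjusted p = 0.38) and -0.03 ± 0.22 (adjusted p = 0.95). The reverse held for Ndufa12, an accessory subunit of the same arm, at -0.11 ± 0.15 (adjusted p = 0.64) from p-NSC_LF and -0.66 ± 0.15 (adjusted p = 0.0057) from CNS-NSC. Ndufab1, the mitochondrial acyl carrier protein, fell by 0.37 ± 0.11 (adjusted p = 0.025) from p-NSC_LF, a call lost without any 1 of the 4 arrays compared (adjusted p up to 0.16), and fell by 0.65 ± 0.11 (adjusted p = 0.0013) below CNS-NSC. Ndufa3, Ndufa6, Ndufa13 and Ndufs4 passed neither test, with differences from -0.28 to 0.32.

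Ndufa2, an accessory subunit of the NADH arm, went the other way. It read 10.16 and 9.93 in mESC, 10.18 and 9.91 in p-NSC_L, 10.20 and 9.79 in p-NSC_LF, 10.72 and 10.83 in d-NSC, and 11.10 and 11.04 in CNS-NSC. Both d-NSC arrays lay between the Lif cultures and CNS-NSC, so that Ndufa2 rose by 0.78 ± 0.15 (adjusted p = 0.0024) from p-NSC_LF and differed from CNS-NSC by -0.29 ± 0.15 (adjusted p = 0.19). Assembly factors of the Ndufaf series, which build complex I and are not part of it, split as well. Ndufaf7, a methyltransferase acting on a core subunit, fell by 1.17 ± 0.14 (adjusted p = 7.6e-05), Ndufaf5, which hydroxylates another, fell by 1.06 ± 0.12 (adjusted p = 5.4e-05) and Ndufaf6 fell by 0.66 ± 0.12 (adjusted p = 0.0013) in d-NSC against p-NSC_LF. Ndufaf4 rose by 0.55 ± 0.14 (adjusted p = 0.0093), a call lost without d-NSC replicate 2 or p-NSC_LF replicate 2, at an adjusted p of up to 0.097. Ndufaf2 fell by 0.33 ± 0.11 (adjusted p = 0.031) from p-NSC_LF, a call lost without any 1 of the 4 arrays compared (adjusted p up to 0.17), and it fell by 1.10 ± 0.11 (adjusted p = 2.5e-05) below CNS-NSC.

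Complex II, succinate dehydrogenase, links the tricarboxylic acid cycle to the chain and has only nuclear subunits. Sdhb, its iron-sulphur subunit, read 11.03 and 10.82 in mESC, 11.57 and 11.46 in p-NSC_L, 11.12 and 11.26 in p-NSC_LF, 10.74 and 10.67 in d-NSC, and 11.49 and 11.56 in CNS-NSC. It rose by 0.59 ± 0.11 (adjusted p = 0.0071) from mESC to p-NSC_L, a call lost without mESC replicate 2 (adjusted p = 0.072), and fell by 0.49 ± 0.11 (adjusted p = 0.0057) from p-NSC_LF to d-NSC, a call lost without p-NSC_LF replicate 2 (adjusted p = 0.059). Sdha, the flavoprotein that oxidises succinate, read 11.66 and 11.56 in mESC, 11.53 and 11.51 in p-NSC_L, 11.48 and 11.44 in p-NSC_LF, 11.41 and 11.39 in d-NSC, and 11.97 and 12.01 in CNS-NSC. Its d-NSC values were close to those of p-NSC_LF (-0.06 ± 0.09, adjusted p = 0.68) and it fell by 0.59 ± 0.09 (adjusted p = 0.00073) below CNS-NSC. Of the membrane anchors, Sdhd fell by 0.66 ± 0.15 (adjusted p = 0.0057) below CNS-NSC, a call lost without d-NSC replicate 1 (adjusted p = 0.058), and Sdhc, the narrowest of the 4 with a range of 0.43, passed no test.

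Complex III oxidises ubiquinol. Uqcrh, the hinge protein that docks cytochrome c1 to its partner, had the widest range in this complex, 1.94, with readings of 12.30 and 12.03 in mESC, 11.89 and 11.44 in p-NSC_L, 11.84 and 11.61 in p-NSC_LF, 10.63 and 10.59 in d-NSC, and 12.62 and 12.47 in CNS-NSC. The d-NSC arrays lay below every other array and the CNS-NSC arrays above all. Uqcrh fell by 1.11 ± 0.16 (adjusted p = 0.00032) from p-NSC_LF, fell by 1.94 ± 0.16 (adjusted p = 8.4e-06) below CNS-NSC, or 3.82-fold, and fell by 1.56 ± 0.16 (adjusted p = 3.3e-05) below mESC. Uqcrfs1, the Rieske iron-sulphur protein at the catalytic centre, read 9.77 and 9.54 in mESC, 9.31 and 9.45 in p-NSC_L, 9.53 and 9.39 in p-NSC_LF, 8.66 and 8.78 in d-NSC, and 9.93 and 10.02 in CNS-NSC. It showed the same order, lowest in d-NSC and highest in CNS-NSC with no overlap, and fell by 0.74 ± 0.12 (adjusted p = 0.00057) from p-NSC_LF. Small subunits Uqcr11 and Uqcr10 fell by 1.20 ± 0.24 and fell by 0.89 ± 0.20, and Uqcrc1, a core protein facing the matrix, fell by 0.75 ± 0.11 (adjusted p = 0.0024, 0.0058 and 0.00041). The Uqcr10 call was lost without d-NSC replicate 1 or p-NSC_LF replicate 1 (adjusted p up to 0.056). The other core protein, Uqcrc2, read 12.40 and 12.34 in mESC, 12.20 and 12.53 in p-NSC_L, 12.44 and 12.44 in p-NSC_LF, 12.63 and 12.65 in d-NSC, and 12.57 and 12.64 in CNS-NSC, the narrowest range in the complex (0.28). It differed between d-NSC and p-NSC_LF by 0.20 ± 0.12 (adjusted p = 0.23), with Uqcrb and Uqcrq, small subunits near the quinone site, at -0.06 each.

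Complex IV, cytochrome c oxidase, passes electrons to oxygen, and 8 of its 10 ubiquitous genes fell in d-NSC. Cox5a, a nuclear subunit on the matrix side, read 11.27 and 10.97 in mESC, 11.47 and 11.11 in p-NSC_L, 11.40 and 11.06 in p-NSC_LF, 9.65 and 9.82 in d-NSC, and 10.89 and 10.90 in CNS-NSC. The d-NSC arrays were more than 1 unit below all 8 others, which themselves spanned 10.89 to 11.47, and Cox5a fell by 1.49 ± 0.16 (adjusted p = 4.8e-05), or 2.82-fold, from p-NSC_LF. Cox7a2, a small membrane subunit, read 11.46 and 11.29 in mESC, 11.07 and 11.38 in p-NSC_L, 11.35 and 11.40 in p-NSC_LF, 10.07 and 10.36 in d-NSC, and 11.48 and 11.65 in CNS-NSC. It fell by 1.16 ± 0.14 (adjusted p = 0.0001). Cox4i1, a subunit at which ATP regulates the enzyme, read 11.56 and 11.12 in mESC, 12.12 and 11.21 in p-NSC_L, 11.61 and 11.40 in p-NSC_LF, 10.30 and 10.46 in d-NSC, and 11.14 and 11.18 in CNS-NSC. It fell by 1.12 ± 0.25 (adjusted p = 0.0049), a call lost in an unmoderated test (adjusted p = 0.055). Its replicates in p-NSC_L were 0.91 apart, and every Lif and CNS-NSC array was still above d-NSC. Ndufa4, once counted in complex I and now as a complex IV subunit, fell by 1.13 ± 0.18 (adjusted p = 0.00064), Cox6b1, which faces the intermembrane space, fell by 1.02 ± 0.20 (adjusted p = 0.0023), and Cox6a1 fell by 0.85 ± 0.16 (adjusted p = 0.0022). Cox6c fell by 0.48 ± 0.10 (adjusted p = 0.0029) and Cox7b fell by 0.39 ± 0.12 (adjusted p = 0.027), and the Cox7b call was lost without any 1 of the 4 arrays compared (adjusted p up to 0.15). Cox8a differed by -0.39 ± 0.24 (adjusted p = 0.24) and Cox5b, the zinc-binding subunit, whose range was the narrowest in this complex among genes at or above the median gene, by 0.13 ± 0.14 (adjusted p = 0.52).

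**Figure D3:**
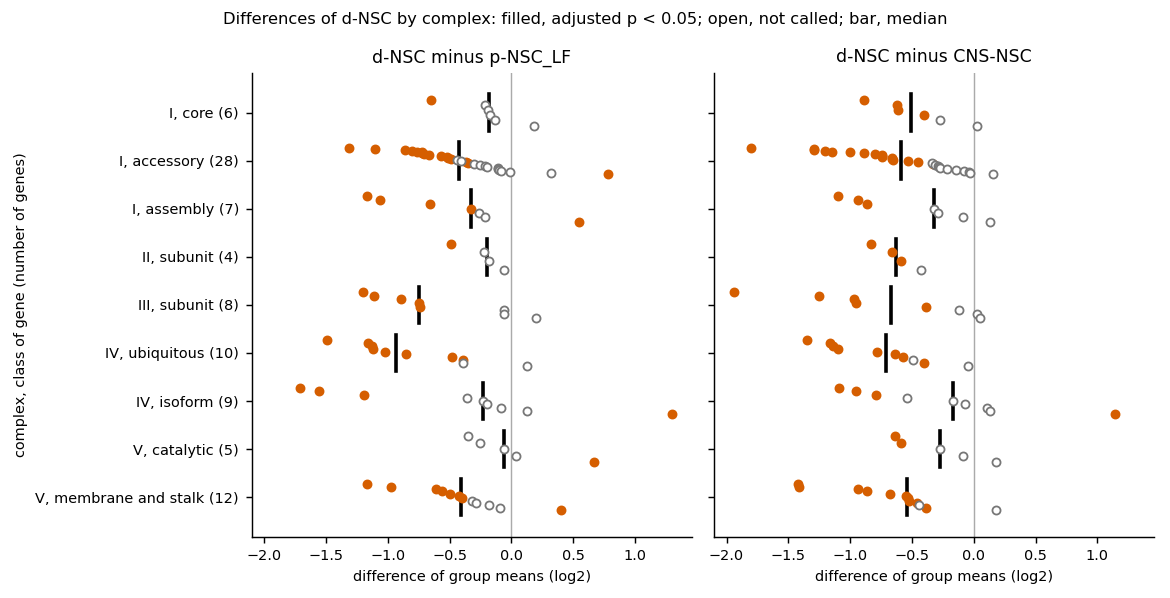
Each point is 1 of the 89 genes, placed by its difference of group means on the log2 scale and sorted by complex and class; filled points passed an adjusted p of 0.05, open ones did not, and bars are class medians. In d-NSC minus p-NSC_LF the median of the ubiquitous complex IV genes is -0.93 and that of the catalytic complex V genes -0.06, and in d-NSC minus CNS-NSC they are -0.71 and -0.27.

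Isoforms of complex IV subunits moved with their partners in some cases and against them in others. Cox6a2, the heart and skeletal muscle form of Cox6a1, read 8.10 and 8.26 in mESC, 8.28 and 8.06 in p-NSC_L, 8.39 and 8.41 in p-NSC_LF, 9.67 and 9.74 in d-NSC, and 8.43 and 8.70 in CNS-NSC. Both d-NSC values were about 1 unit above all others, and Cox6a2 rose by 1.30 ± 0.13 (adjusted p = 2.1e-05), or 2.46-fold, from p-NSC_LF, while Cox6a1 fell. It was the 1 gene of the 89 that rose in d-NSC against CNS-NSC, by 1.14 ± 0.13 (adjusted p = 6.5e-05). Cox7a1, the muscle form of Cox7a2, read 10.58 and 10.61 in mESC, 9.93 and 10.09 in p-NSC_L, 9.65 and 9.85 in p-NSC_LF, 8.26 and 8.13 in d-NSC, and 8.96 and 9.61 in CNS-NSC. It had the widest range of all 89, 2.40, was highest in mESC and lowest in d-NSC, and fell by 1.56 ± 0.18 (adjusted p = 8.2e-05) in the step to d-NSC as Cox7a2 did. Cox6b2, the testis form of Cox6b1, read 9.72 and 9.51 in mESC, 9.78 and 9.78 in p-NSC_L, 10.57 and 10.27 in p-NSC_LF, 8.59 and 8.83 in d-NSC, and 9.71 and 8.80 in CNS-NSC. It was highest in p-NSC_LF, fell by 1.71 ± 0.25 (adjusted p = 0.00031) from there to d-NSC, and overlapped between d-NSC and CNS-NSC replicate 2. Cox7a2l, a relative of Cox7a2 that joins complexes III and IV into supercomplexes, fell by 1.19 ± 0.16 (adjusted p = 0.0002) and fell by 0.95 ± 0.16 (adjusted p = 0.0011) in the 2 comparisons of d-NSC. Testis and muscle forms at the dim end of the array, Cox7b2 (means 5.82 to 6.18), Cox8b (7.10 to 7.89) and Cox8c (7.56 to 7.75), gave no call between d-NSC and p-NSC_LF. Cox8b read 7.35 and 8.43 on the CNS-NSC arrays, and its fall in d-NSC against CNS-NSC (-0.79 ± 0.27, adjusted p = 0.047) was lost without any 1 of 9 arrays (adjusted p up to 0.27).

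The ATP synthase makes ATP in its F1 head, and the ring and stalk couple the head to the proton flow. Atp5b, the catalytic beta subunit, read 13.77 and 13.80 in mESC, 13.66 and 13.73 in p-NSC_L, 13.71 and 13.69 in p-NSC_LF, 13.74 and 13.75 in d-NSC, and 13.80 and 13.87 in CNS-NSC, a range of group means of only 0.14, and it passed no test. Atp5d, the delta subunit of the central stalk foot, read 12.97 and 12.98 in mESC, 12.76 and 12.92 in p-NSC_L, 12.88 and 12.89 in p-NSC_LF, 13.59 and 13.53 in d-NSC, and 13.32 and 13.42 in CNS-NSC. Here the d-NSC arrays were the highest of all, and Atp5d rose by 0.67 ± 0.10 (adjusted p = 0.0004) from p-NSC_LF. Of the other F1 genes Atp5c1 (gamma) fell by 0.64 ± 0.11 (adjusted p = 0.0014) and Atp5e (epsilon) fell by 0.59 ± 0.14 (adjusted p = 0.009) below CNS-NSC. The Atp5e call was lost without d-NSC replicate 1 or CNS-NSC replicate 1 (adjusted p up to 0.089). Atp5l, the g subunit at which 2 synthases dimerise, read 10.92 and 10.22 in mESC, 10.12 and 9.35 in p-NSC_L, 10.10 and 9.48 in p-NSC_LF, 8.72 and 8.91 in d-NSC, and 10.33 and 10.15 in CNS-NSC. Its replicates were 0.6 to 0.8 apart in the 3 Lif groups, both d-NSC arrays were the lowest, and it fell by 1.42 ± 0.29 (adjusted p = 0.0036) below CNS-NSC. Against p-NSC_LF it fell by 0.97 ± 0.29 (adjusted p = 0.023), a call lost without either d-NSC array or p-NSC_LF replicate 1 (adjusted p up to 0.19). Atp5mpl, a small membrane proteolipid, fell by 1.17 ± 0.29 (adjusted p = 0.0095) from p-NSC_LF, a call lost without d-NSC replicate 1 or p-NSC_LF replicate 1 (adjusted p up to 0.077), and fell by 1.41 ± 0.29 (adjusted p = 0.0039) below CNS-NSC. Atp5o, the stalk protein that holds the F1 head to the membrane part, fell by 0.86 ± 0.17 (adjusted p = 0.0027) below CNS-NSC. Against p-NSC_LF it fell by 0.56 ± 0.17 (adjusted p = 0.024), a call lost without d-NSC replicate 1 or p-NSC_LF replicate 1 (adjusted p up to 0.17). The peripheral stalk genes Atp5h and Atp5j stood at -0.46 ± 0.11 (adjusted p = 0.0073) and -0.39 ± 0.11 (adjusted p = 0.015) against CNS-NSC and at -0.09 ± 0.11 (adjusted p = 0.56) and -0.18 ± 0.11 (adjusted p = 0.21) against p-NSC_LF. The Atp5h call was lost without d-NSC replicate 1 (adjusted p = 0.073) and the Atp5j call without either d-NSC array or CNS-NSC replicate 2 (up to 0.095). Atp5a1, the alpha subunit of the F1 head, passed neither test, at -0.06 ± 0.11 (adjusted p = 0.76) and -0.27 ± 0.11 (adjusted p = 0.099).

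The 3 genes for the same c-ring protein differed: Atp5g1 fell by 0.50 ± 0.10 (adjusted p = 0.0032), Atp5g3 stood at -0.32 ± 0.22 (adjusted p = 0.31) and Atp5g2 rose by 0.40 ± 0.14 (adjusted p = 0.045), the last lost without any 1 of the 4 arrays and under 5 other settings.

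**Figure D4:**
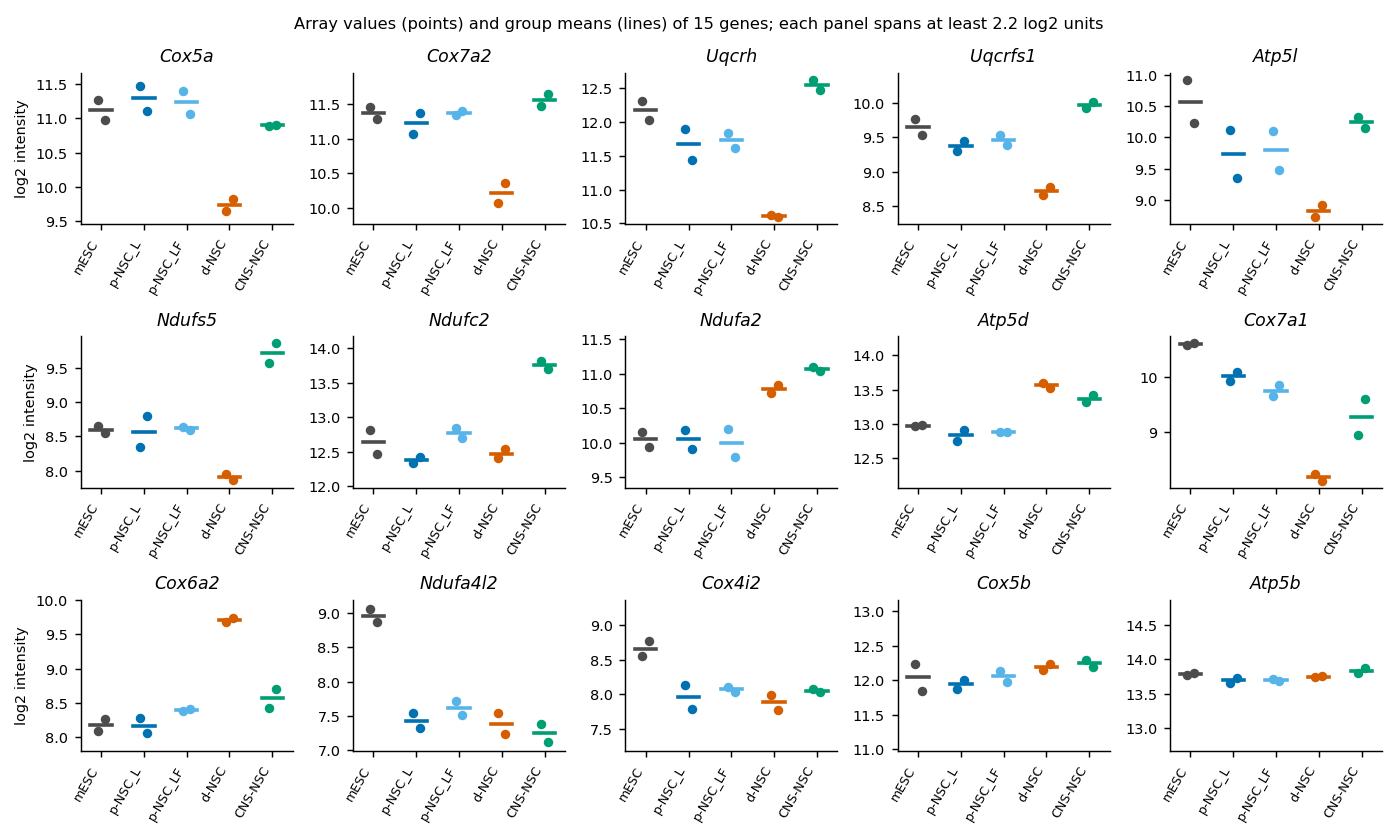
Points are the log2 values of the 2 arrays of each of 5 groups and lines are group means, in a panel for each of 15 genes; every panel spans at least 2.2 log2 units. Cox5a, Cox7a2, Uqcrh, Uqcrfs1 and Atp5l have both d-NSC points below all others, Cox6a2 has them above at 9.67 and 9.74, and Atp5b stays between 13.66 and 13.87.

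Against CNS-NSC, grown with the same mitogens, d-NSC had 55 of the 89 genes lower, 1 higher and 33 not called, with a median of -0.55. Among all genes 16.5% were lower and 17.6% higher (median -0.01), and of the 3885 with a mean of at least 10, 803 were lower and 1033 higher (median 0.05). Falls were found in every complex: 24 of 41 genes of complex I, 3 of 4 of complex II, 5 of 8 of complex III, 11 of 19 of complex IV and 12 of 17 of complex V were lower. At least 2-fold differences were found for 16 genes that fell and for Cox6a2, which rose. Of the 55 falls 36 were called whichever array was left out. This comparison and the one with p-NSC_LF share the d-NSC arrays, and the strain (ICR against 129/Sv) and the B27 supplement go with the groups and cannot be told apart from cell origin. Feeder fibroblast markers (6 of 8 higher, 1 lower), endoderm markers (4 of 5 higher), ES cell markers (4 of 6 higher) and neuron markers (3 of 6 higher, 1 lower) also differed between the same groups. So did neural stem cell markers (5 of 8 lower, 1 higher) and astroglia markers (2 of 4 lower), and their part in the result was not tested.

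CNS-NSC against mESC gave 25 of the 89 genes higher and 6 lower, with a median of 0.20, where 21.7% of all genes were higher and 22.1% lower with a median of 0.04. Among genes with a mean of at least 10, 24.1% of all were higher, against 28.8% of the 59 members at that level. The median of the 89 genes was 0.10 without mESC replicate 2 and 0.28 without mESC replicate 1. Of the 41 complex I genes 16 were higher and 2 lower, against 2 and 3 of the 19 of complex IV. Ndufc2 rose by 1.12 ± 0.13, Ndufs5 rose by 1.11 ± 0.15, Ndufa2 rose by 1.02 ± 0.15, Ndufaf4 rose by 0.83 ± 0.14 and Ndufs8 rose by 0.81 ± 0.14 (adjusted p from 5.4e-05 to 0.00086). Ndufb2, of the membrane arm, rose by 0.79 ± 0.27 (adjusted p = 0.038), with 7.95 and 7.27 in mESC and 8.84 and 7.96 in CNS-NSC, and its call was lost without any 1 of 6 arrays. Ndufaf6 fell by 0.83 ± 0.12 and Cox7a1 fell by 1.31 ± 0.18, while the falls of Ndufaf7 (-0.44 ± 0.14, adjusted p = 0.023) and Uqcrc1 (-0.37 ± 0.11, adjusted p = 0.021) were lost without CNS-NSC replicate 1 or mESC replicate 1, and for Uqcrc1 also without mESC replicate 2. Without mESC replicate 2, which read lower than replicate 1 for most of these genes, 10 were higher and 5 lower, and 9 of the 25 rises were called whichever array was left out. In d-NSC against mESC 40 fell and 4 rose (median -0.37), where 19.9% of all genes were lower and 20.7% higher. Among genes with a mean of at least 10, 32.5% of all were lower, against 39.0% of the 59 members at that level. The median moved to -0.23 without mESC replicate 1 and to -0.52 without replicate 2. The calls were led by Cox7a1 at -2.40 ± 0.18 (adjusted p = 4.3e-06), Atp5l at -1.75 ± 0.29 (adjusted p = 0.0008) and, upward, Cox6a2 at 1.52 ± 0.13 (adjusted p = 7.4e-06). These 3 comparisons share arrays and are not independent.

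Between ES cells and primary Lif spheres, p-NSC_L against mESC, few of the genes were called. The sums over ES cell markers were alike, at 14.64 and 14.69 in p-NSC_L and 14.63 and 14.53 in mESC, with 1 of 6 lower. Other markers differed. Of 8 neural stem cell markers 3 were higher and 1 lower, and of 8 feeder fibroblast markers 3 were higher and 1 lower. Endoderm markers were higher at 2 of 5, astroglia markers at 1 of 4, and neuron markers at 1 of 6 with 1 lower. Serum and the Hprt reading also differed between these groups, and feeder cells are named above for mESC only. The part of these differences in the calls was not tested. Of 89, 4 rose and 4 fell (4.5% each, beside 6.56% and 6.79% of all genes), with a median of -0.06. The 2 falls in complex IV were of paralogues linked to low oxygen. Ndufa4l2, a relative of Ndufa4 induced by hypoxia-inducible factors, read 9.05 and 8.86 in mESC, 7.55 and 7.32 in p-NSC_L, 7.72 and 7.52 in p-NSC_LF, 7.54 and 7.24 in d-NSC, and 7.39 and 7.13 in CNS-NSC. Cox4i2, the oxygen-regulated form of Cox4i1, read 8.56 and 8.77 in mESC, 8.13 and 7.79 in p-NSC_L, 8.11 and 8.04 in p-NSC_LF, 7.99 and 7.78 in d-NSC, and 8.08 and 8.03 in CNS-NSC. In both the mESC arrays alone stood above the rest, and neither passed the test in a later step: Ndufa4l2 fell by 1.52 ± 0.15 (adjusted p = 0.00024), 2.87-fold, and Cox4i2 fell by 0.71 ± 0.14 (adjusted p = 0.0078). The Cox4i2 call was lost without mESC replicate 2 (adjusted p = 0.074), and the Ndufa4l2 call held without any 1 array. Of the other 6 calls Ndufaf5 rose by 0.66 ± 0.12, Ndufa11 rose by 0.62 ± 0.17, Sdhb rose as given above and Ndufb9 rose by 0.55 ± 0.15, while Atp5pb fell by 0.47 ± 0.13 and Ndufc1 fell by 0.46 ± 0.10 (adjusted p from 0.0053 to 0.041), each lost without at least 1 array. Leaving out 1 array gave 2 to 11 calls, and 2 without mESC replicate 2, while the replicate number as a block gave 13. The median was -0.15 without mESC replicate 2 and 0.02 without replicate 1.

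In a list of 18 genes known to answer to low oxygen, 10 fell (55.6%) and 1 rose (5.6%) in p-NSC_L against mESC, with a median of -0.67. Among all genes 6.79% fell and 6.56% rose there. Bnip3, a receptor for mitophagy, fell by 3.15 ± 0.23 (adjusted p = 5.8e-05), the oxygen-sensing hydroxylase Egln3 fell by 2.01 ± 0.18 (adjusted p = 0.00015) and Ldha, which turns pyruvate into lactate, fell by 1.22 ± 0.11 (adjusted p = 0.00018). Epas1, the hypoxia-inducible factor HIF-2alpha, rose by 1.16 ± 0.10 (adjusted p = 0.00015). From p-NSC_LF to d-NSC 7 of the 18 rose (38.9%) and 3 fell (16.7%), where 19.3% of all genes rose and 19.3% fell. Vegfa, the vascular growth factor, rose by 1.29 ± 0.11 (adjusted p = 7.7e-06), while Ndufa4l2 stood at -0.23 ± 0.15 (adjusted p = 0.27) and Cox4i2 at -0.20 ± 0.14 (adjusted p = 0.31).

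Passage with FGF and heparin, p-NSC_LF against p-NSC_L, moved none of the 89 past limma's threshold, where 1.78% of all genes were called in either direction. The median was 0.06 (0.12 without p-NSC_LF replicate 2 and 0.01 without replicate 1), and 6 of the 89 had an unadjusted p below 0.05. Cox6b2 had the largest difference, 0.64 ± 0.25 (adjusted p = 0.27).

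Other genes that serve the chain were read from lists. Subunits and carriers outside the symbols above, 12 genes, gave 4 falls and 1 rise in d-NSC against p-NSC_LF and 7 falls and 1 rise against CNS-NSC. These are 33.3% and 58.3% lower, beside 19.3% and 16.5% of all genes. The rises are 8.3% in each, beside 19.3% and 17.6% of all genes. Cycs, somatic cytochrome c, which carries electrons from complex III to IV, read 12.43 and 12.44 in mESC, 12.53 and 12.62 in p-NSC_L, 12.74 and 12.82 in p-NSC_LF, 12.93 and 12.91 in d-NSC, and 13.25 and 13.46 in CNS-NSC. On this probe set it was not lowest in d-NSC: it differed from p-NSC_LF by 0.14 ± 0.11 (adjusted p = 0.34) and fell by 0.43 ± 0.11 (adjusted p = 0.0094) below CNS-NSC. With its most variable probe set the difference of d-NSC from mESC was reversed and not called, as given in the closing section. Cyct, the testis form, read 8.53 and 8.19 in mESC, 6.68 and 7.40 in p-NSC_L, 7.31 and 7.64 in p-NSC_LF, 6.44 and 6.31 in d-NSC, and 6.23 and 6.50 in CNS-NSC. It fell by 1.32 ± 0.22 (adjusted p = 0.0041) in p-NSC_L against mESC. Etfdh, which feeds electrons of fatty acid oxidation to ubiquinone, fell by 1.57 ± 0.11 (adjusted p = 1.7e-06) below CNS-NSC, and Etfb, the beta chain of its donor, rose by 0.59 ± 0.12 (adjusted p = 0.003) in d-NSC against p-NSC_LF. Of the 13 subunits encoded in mitochondria, 2 had values. COX2, of the catalytic core of complex IV, read 13.62 and 13.71 in mESC, 13.60 and 13.72 in p-NSC_L, 13.75 and 13.78 in p-NSC_LF, 13.65 and 13.66 in d-NSC, and 13.75 and 13.89 in CNS-NSC. ND3, of the membrane arm of complex I, read 12.98 and 12.96 in mESC, 12.42 and 12.81 in p-NSC_L, 13.15 and 13.15 in p-NSC_LF, 13.06 and 13.10 in d-NSC, and 13.04 and 13.29 in CNS-NSC. Neither was called in any of the 6 comparisons, and in d-NSC minus p-NSC_LF they stood at -0.11 ± 0.10 (adjusted p = 0.44) and -0.07 ± 0.14 (adjusted p = 0.75).

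Assembly factors outside the symbol rule moved in both directions: of 43 measured, 12 fell and 1 rose in d-NSC against p-NSC_LF (median -0.13), and 13 fell and 8 rose against CNS-NSC (median -0.13). These are 27.9% lower and 2.3% higher in the first comparison, and 30.2% and 18.6% in the second, whose rises are near the 17.6% of all genes. Cox17, the copper chaperone of complex IV, read 8.83 and 8.77 in mESC, 8.86 and 9.20 in p-NSC_L, 9.17 and 9.18 in p-NSC_LF, 7.53 and 7.49 in d-NSC, and 7.96 and 8.21 in CNS-NSC. It fell by 1.67 ± 0.13 (adjusted p = 5.1e-06), or 3.17-fold. Sdhaf4, an assembly factor of complex II, fell by 0.98 ± 0.15 (adjusted p = 0.00039), and Timmdc1, which helps to build the membrane arm of complex I, rose by 0.81 ± 0.11 (adjusted p = 0.00021). The mitochondrial ribosome, which makes the subunits encoded in mitochondria, had 37 of 77 Mrpl and Mrps genes lower and 2 higher in d-NSC against p-NSC_LF (median -0.38), and 22 lower and 8 higher against CNS-NSC (median -0.26). In all genes 19.3% and 16.5% were lower in these comparisons. For scale, 2 lists added after the values were seen gave, against p-NSC_LF and CNS-NSC in turn, 30 and 9 lower and 0 and 9 higher of 59 cytosolic ribosomal genes (medians -0.34 and 0.03). Of 40 proteasome genes 13 and 12 were lower and 2 and 6 higher (medians -0.14 and -0.12).

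Among regulators of mitochondrial biogenesis falls outnumbered rises in the 3 comparisons counted below. In d-NSC against CNS-NSC the share that fell was near that of all genes. Ppargc1a, the coactivator PGC-1alpha that induces respiratory genes in muscle, brown fat and brain, read 6.10 and 6.04 in mESC, 5.99 and 5.78 in p-NSC_L, 5.69 and 5.99 in p-NSC_LF, 6.42 and 6.36 in d-NSC, and 11.41 and 11.59 in CNS-NSC. It was high in CNS-NSC alone, but it also rose from p-NSC_LF to d-NSC, by 0.55. It rose by 5.43 ± 0.13 (adjusted p = 1.1e-09) from mESC to CNS-NSC, and in d-NSC against CNS-NSC it fell by 5.11 ± 0.13 (adjusted p = 6.5e-09), or 34.6-fold. Its other values lie at or below the lower quartile of the arrays (6.39 to 6.49), so that the size of these differences is uncertain. Gabpa, the DNA-binding subunit of the factor GABP, read 11.19 and 11.30 in mESC, 11.25 and 11.23 in p-NSC_L, 11.12 and 11.19 in p-NSC_LF, 10.16 and 10.26 in d-NSC, and 10.39 and 10.45 in CNS-NSC. It fell by 0.95 ± 0.10 (adjusted p = 3.4e-05) from p-NSC_LF to d-NSC, with CNS-NSC close to d-NSC (-0.21 ± 0.10, adjusted p = 0.13). Its partner Gabpb1 rose by 0.51 ± 0.10 (adjusted p = 0.0026). Pprc1, a relative of PGC-1alpha, fell by 0.89 ± 0.15 (adjusted p = 0.0009), and Polg, the polymerase that copies mitochondrial DNA, fell by 0.92 ± 0.12 (adjusted p = 0.00023) below CNS-NSC. Of 20 regulators 9 fell and 2 rose in d-NSC against p-NSC_LF and 4 fell and 2 rose against CNS-NSC, while 12 fell and 3 rose in CNS-NSC against mESC. Among all genes 19.3%, 16.5% and 22.1% fell and 19.3%, 17.6% and 21.7% rose in these comparisons. The falls against CNS-NSC, 20.0% of the regulators, are thus near the share of all genes. Tfam, which packages and transcribes mitochondrial DNA, was lowest in CNS-NSC, where most of the 89 genes were highest: it read 10.29 and 10.19 in mESC, 9.77 and 10.18 in p-NSC_L, 9.90 and 9.96 in p-NSC_LF, 9.37 and 9.58 in d-NSC, and 9.05 and 9.18 in CNS-NSC.

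**Figure D5:**
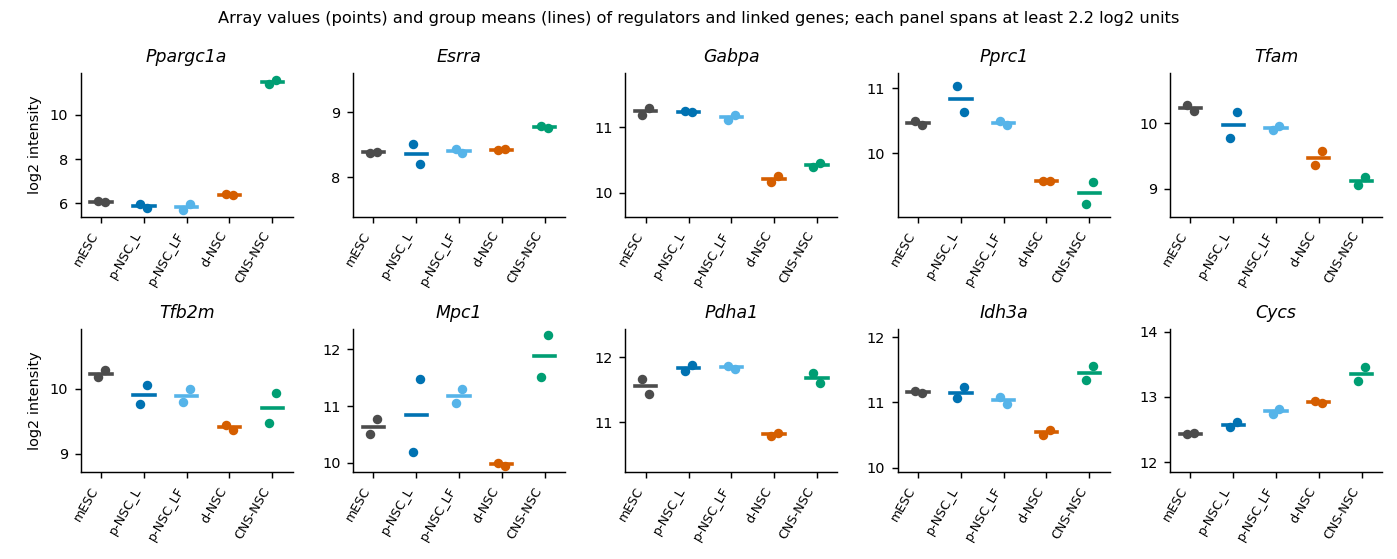
Points are the log2 values of the 2 arrays of each of 5 groups and lines are group means, in a panel for each of 10 regulators and genes linked to the chain; every panel spans at least 2.2 log2 units, and that of Ppargc1a spans more. Ppargc1a reads 11.41 and 11.59 in CNS-NSC and at most 6.42 elsewhere, Gabpa and Pprc1 are lower in both d-NSC and CNS-NSC than in the Lif cultures, and Pdha1 and Idh3a are lowest in d-NSC.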

How the data were processed

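Per the labels' protocols, Trizol RNA was labelled with an Ambion kit for Affymetrix whole-transcript arrays. The authors deposited a log2 intensity for each of 35556 probe sets on each array. RMA and Partek are named, with no version, in the submitters' processing notes. The base of the logarithm was inferred from the range (2.07 to 14.74, array medians 7.66 to 7.76). The annotation's genome build was not given in the sources used here. RMA makes the arrays' distributions alike and compresses differences of dim probe sets.

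Of the probe sets 21789 had 1 symbol, 1621 several and 12146 none here; 21698 matched RefSeq by gene number, and 999 of the 19938 genes had more than 1. No array pair held identical values. limma 3.58.1 in R 4.3.3 fitted 1 mean per group over all 10 arrays (residual degrees of freedom 5, prior 4.9; median SE of a difference 0.13) and was tested on simulated data. The number of arrays limits precision.

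The genes and lists were chosen with earlier results of these data known. Genes named were up to 6 rises and 6 falls per comparison, isoforms with partners, the widest and narrowest of each complex, and up to 2 rises and 2 falls per list and comparison; Ndufs1, Sdha, Uqcrfs1, Pdha1, Idh3a, other members and the cell type markers given as examples were chosen after their values were seen. Alternatives are given in the closing section. Some list entries are not analysed here, and scan batches were not examined.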

Additional observations from a re-analysis of the deposited data

How the results depend on the processing

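Counts of the 89 genes called by limma kept within 1.5 times under all alternatives except those given here. For p-NSC_L against mESC (8 calls), array weights gave 5, an unmoderated test 4 and leaving out 1 array 2 to 11. For p-NSC_LF against p-NSC_L (0 calls), leaving out 1 array gave 0 to 1. For CNS-NSC against mESC (31 calls), a fit on only the 2 groups gave 20 and leaving out 1 array 15 to 36; the cause was not tested. Leaving out 1 array gave 33 to 52 calls for d-NSC against p-NSC_LF (main 49), 39 to 58 against CNS-NSC (main 56), 31 to 49 against mESC (main 44) and 45 to 69 by the F test (main 63). Deviations of same-numbered replicates correlated at 0.138 to 0.375 in the 6 pairs of groups without d-NSC and at -0.107 to 0.094 in the 4 with it, so that the numbers were not taken to pair samples over all 5 groups. The replicate number as a block gave 13 calls for p-NSC_L and 33 for CNS-NSC against mESC, 0 for p-NSC_LF against p-NSC_L, 50, 57 and 47 for d-NSC against p-NSC_LF, CNS-NSC and mESC, and 68 by the F test. Cycs in d-NSC minus mESC was reversed, at -0.05 (adjusted p = 0.90), with the most variable probe set. Centring arrays on their medians moved the median of all genes in d-NSC minus p-NSC_LF to -0.11 and that of the 89 genes to -0.46. Of other values, for single genes and for counts of calls per complex, 9592 were classed as the same, 97 as stronger and 339 as weaker. A single gene was stronger if it became called and weaker if it lost the call. A count was so classed if it moved by more than 1.5 times. Genes called in neither fit were classed as the same whatever their sign. Of 17 genes with several probe sets, all 17 showed one sign over them in d-NSC minus p-NSC_LF and 16 in d-NSC minus CNS-NSC. The deposited values carry no detection call, and Cox7b2 on every array lies below the arrays' lower quartile.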

Other observations

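Of 26 genes of the tricarboxylic acid cycle and pyruvate entry, by limma, 14 fell, 4 rose and 8 were not called in d-NSC against p-NSC_LF (53.8% lower, all genes 19.3%; median -0.40). Against CNS-NSC 14 fell and 1 rose (53.8% lower, all genes 16.5%; median -0.45). The falls from p-NSC_LF include kinases that inhibit pyruvate entry, but the rises include Pdk3, another kinase of the same family. Pdk4, a kinase that switches off pyruvate dehydrogenase, fell by 3.22 ± 0.30 (adjusted p = 1.5e-05) and its relative Pdk1 fell by 1.45 ± 0.12 (adjusted p = 7.4e-06), whereas Pdp1, a phosphatase that reverses them, rose by 1.07 ± 0.10 (adjusted p = 1.8e-05). Mpc1, the pyruvate carrier subunit, read 10.50 and 10.77 in mESC, 10.19 and 11.48 in p-NSC_L, 11.05 and 11.30 in p-NSC_LF, 10.00 and 9.95 in d-NSC, and 11.52 and 12.25 in CNS-NSC. It fell by 1.91 ± 0.35 (adjusted p = 0.0019) in d-NSC against CNS-NSC. Pdha1, the catalytic subunit of pyruvate dehydrogenase, fell by 1.03 ± 0.11 (adjusted p = 5.4e-05); it is named after its values were seen. Idh2, the NADP-linked isocitrate dehydrogenase, read 11.30 and 11.21 in mESC, 12.79 and 12.79 in p-NSC_L, 12.56 and 12.54 in p-NSC_LF, 11.53 and 11.61 in d-NSC, and 11.75 and 12.21 in CNS-NSC. It rose by 1.54 ± 0.14 (adjusted p = 0.00016) from mESC to p-NSC_L and fell by 0.98 ± 0.14 (adjusted p = 0.00031) from p-NSC_LF to d-NSC.

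Carriers that exchange metabolites across the inner membrane differed from one another: of 14, 6 fell and 4 rose in d-NSC against p-NSC_LF, and 6 fell and 2 rose against CNS-NSC. Falls were thus 42.9% in both comparisons, beside 19.3% and 16.5% of all genes. Rises were 28.6% and 14.3%, beside 19.3% and 17.6% of all genes. Slc25a4, an ADP/ATP carrier that brings ADP to complex V, read 11.42 and 11.22 in mESC, 9.95 and 10.75 in p-NSC_L, 10.59 and 10.58 in p-NSC_LF, 11.59 and 11.71 in d-NSC, and 12.70 and 12.78 in CNS-NSC. It rose by 1.07 ± 0.21 (adjusted p = 0.0023) from p-NSC_LF to d-NSC. Slc25a31, the germ cell form of that carrier, fell by 1.03 ± 0.14 (adjusted p = 0.00017) to values below the arrays' lower quartile. The 2 aspartate and glutamate carriers went opposite ways between the neural groups: Slc25a12 stood at -1.43 ± 0.09 (adjusted p = 1.5e-06) and Slc25a13 at 2.54 ± 0.12 (adjusted p = 1.6e-07) in d-NSC minus CNS-NSC, with Slc25a13 at 8.10 and 8.42 in CNS-NSC and at least 10.78 on the 8 other arrays.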
